A study of Homo sapiens with 6 samples.

Results

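The genes described here are 10 factors, inhibitors and inflammatory targets of the NF-kB pathway, measured by RNA sequencing in A375 cells, an established human melanoma line. They were listed by symbol (CXCL8, CXCL1, CXCL2, PTGS2, BIRC3, TNFAIP2, TNFAIP3, NFKBIA, NFKB1 and RELB) with earlier results of these data known, since CXCL8, PTGS2 and BIRC3 were higher and TNFAIP2 lower after SLNCR. For that reason their differences between the groups are given as a description, without a p-value. GENCODE symbols matched 9 of the 10 to a row among 18318 genes, and the expression of CXCL2 was not analysed here. All 9 passed the filter on low counts that left 12797 genes for testing.

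The series holds 6 libraries. In 3 of them the cells had received a pcDNA3.1 plasmid with the full-length wild type long non-coding RNA SLNCR (LINC00673), and in the other 3 the vector backbone alone, called the empty vector here. Per the labels' protocols, the plasmid carried a CAG promoter and a puromycin resistance gene. All cells were transfected with Lipofectamine 2000, kept for 48 h in 2 µg/mL puromycin, and yielded RNA from which ribosomal RNA was depleted. Both groups therefore carried plasmid DNA, lipid reagent and puromycin selection, and untransfected cells are not among the samples. The series design calls the libraries biological replicates without saying how the cultures were separated, so p-values measure the spread between these libraries, which may be partly technical. LINC00673 was counted at 1786, 2569 and 2040 reads in the SLNCR libraries (replicates 1, 2 and 3 in that order, here and throughout), against 195, 194 and 193 reads with the empty vector.

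Totals were 9287450 to 10822083 counts in the SLNCR libraries and 9351940 to 10498711 in the empty vector libraries. The labels call the cell type epithelial. Of the epithelial markers, EPCAM and CDH1 had at most 4 reads in any library, while KRT8 and KRT18 were high, at 146 and 315 CPM in SLNCR libraries and 181 and 384 CPM in empty vector libraries. CPM are counts scaled to library size, here with TMM factors. The neural crest and melanocyte factors SOX10 and MITF were present, at 12.7 and 95.6 CPM with SLNCR and 13.4 and 85.4 CPM with the empty vector. The pigment-cell genes of the same marker list were near absent, with 2 to 13 reads per library for PMEL, 11 to 16 for MLANA and 1 to 6 for DCT. Among 8 measured immune cell markers the summed level was 113 to 137 CPM with SLNCR and 115 to 117 CPM with the empty vector, nearly all of it CD68. The lymphocyte gene CD3E had at most 1 read in any library. In bulk RNA, fewer cells that express a gene and less of its RNA per cell cannot be told apart.

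NF-kB factors are dimers of Rel family proteins that are held in the cytoplasm by IkB inhibitors. Signals from cytokine and pattern recognition receptors activate the IkB kinase complex, IkB is degraded, and the dimers enter the nucleus and switch on genes for chemokines, survival proteins and their own inhibitors. In melanoma the pathway is known for constant activity and for the secretion of the neutrophil-attracting chemokines CXCL8 and CXCL1.

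Promoters of the genes are shown first because NF-kB factors act through short sites near the start. RefSeq promoter windows (GRCh38.p14, 250 bases before to 50 after the start) were matched for 9 of the 10 genes, with 2 windows for NFKB1. These 9 include CXCL2 and not RELB, so they are not the same set as the 9 genes with expression values. Of these, 5 are printed, from the 4 genes whose libraries did not overlap between the groups and from CXCL1, whose libraries did. They lie at chr4:73740319-73740618 (plus strand, CXCL8), chr4:73869143-73869442 (plus strand, CXCL1), chr1:186680374-186680673 (minus strand, PTGS2), chr11:102317234-102317533 (plus strand, BIRC3) and chr14:103123211-103123510 (plus strand, TNFAIP2). Each is written 5′ to 3′ on the gene's own strand, and capitals mark matches to the NF-kB consensus or to the core GGAATTTCC on either strand.
CXCL8: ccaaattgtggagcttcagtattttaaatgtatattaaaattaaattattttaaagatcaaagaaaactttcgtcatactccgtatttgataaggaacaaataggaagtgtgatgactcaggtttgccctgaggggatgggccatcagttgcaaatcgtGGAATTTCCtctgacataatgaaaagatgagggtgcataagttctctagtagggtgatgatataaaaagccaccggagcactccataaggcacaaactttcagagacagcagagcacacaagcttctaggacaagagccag
CXCL1: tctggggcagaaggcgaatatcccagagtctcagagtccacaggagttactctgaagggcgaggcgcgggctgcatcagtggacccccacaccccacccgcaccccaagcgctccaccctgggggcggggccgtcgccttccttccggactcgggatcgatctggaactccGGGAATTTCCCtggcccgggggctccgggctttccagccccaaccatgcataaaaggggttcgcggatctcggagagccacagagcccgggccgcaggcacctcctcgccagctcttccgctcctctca
PTGS2: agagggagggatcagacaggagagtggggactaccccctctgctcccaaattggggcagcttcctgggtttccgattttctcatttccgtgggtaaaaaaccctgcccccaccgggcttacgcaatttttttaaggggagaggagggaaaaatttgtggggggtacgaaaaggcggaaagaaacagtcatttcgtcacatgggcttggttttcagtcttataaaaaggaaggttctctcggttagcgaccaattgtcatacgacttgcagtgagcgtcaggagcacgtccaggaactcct
BIRC3: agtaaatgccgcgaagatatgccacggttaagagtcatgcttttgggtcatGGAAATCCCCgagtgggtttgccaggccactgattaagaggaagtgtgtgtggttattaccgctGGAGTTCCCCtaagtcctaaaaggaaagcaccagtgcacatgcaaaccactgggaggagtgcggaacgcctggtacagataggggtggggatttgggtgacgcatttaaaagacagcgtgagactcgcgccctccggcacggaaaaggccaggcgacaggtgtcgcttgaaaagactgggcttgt
TNFAIP2: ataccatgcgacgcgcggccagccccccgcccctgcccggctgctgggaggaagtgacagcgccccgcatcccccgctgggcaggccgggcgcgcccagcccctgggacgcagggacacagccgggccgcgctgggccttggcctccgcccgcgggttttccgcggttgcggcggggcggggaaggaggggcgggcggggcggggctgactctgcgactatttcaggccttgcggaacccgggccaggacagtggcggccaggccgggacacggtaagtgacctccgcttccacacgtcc

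The NF-kB consensus was found in the windows of 6 of the 9 genes, against 5.91% of 34796 RefSeq promoter windows, and the core GGAATTTCC in 5 of 9, against 0.463%. The genes were listed as NF-kB factors, inhibitors and targets, so nothing is read from an excess over all windows. They are counted as genes, NFKB1 once for both its windows, while the shares are of single windows. The core overlaps the consensus where both are present. CXCL1 holds the core from base -78 to -70 inside a consensus match on both strands, and CXCL8 holds the core alone, from -91 to -83. In BIRC3 the consensus was matched at -199 to -190 and at -135 to -126, and in TNFAIP3 at -67 to -58 and -55 to -46. NFKBIA and NFKB1 hold both forms, from -81 and from -49. The NF-kB letters searched, consensus or core, were not present in the windows of PTGS2 and TNFAIP2. This says nothing about NF-kB sites with other letters in these windows, or about sites elsewhere. Of the other motifs, AP-1 (TGANTCA) was found in CXCL8 alone at -137 to -131, against 7.73% of windows. The TATA box letters (TATAAA, 11.6% of windows on either strand) were found on the gene's own strand in CXCL8 and PTGS2. In NFKBIA they were found on the opposite strand only. The GC box GGGCGG, present in 44.9% of windows, was found in 5 of 9 genes and 6 times each in TNFAIP2 and TNFAIP3. C/EBP (TTGCNNAA, 10.5% of windows) was matched in CXCL2, PTGS2 and TNFAIP2, and neither the E2F form TTTNGCGC nor the CRE form TGACGTCA was matched in any of the 9. A match is a stretch of letters and not evidence that a factor was bound.

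**Figure D1:**
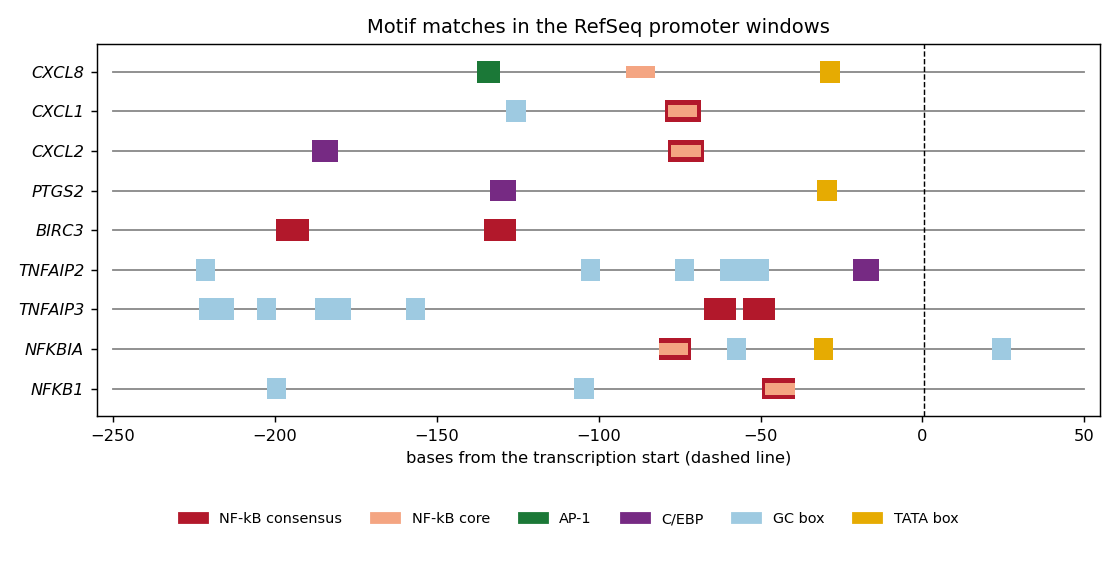
Motif matches in the promoter windows of 9 genes, 1 row per gene, with bases from the transcription start on the x axis and coloured boxes for each motif (core matches are the narrow boxes). NF-kB matches lie within 100 bases of the start in all genes that have one except BIRC3, where both lie between -199 and -126. PTGS2 and TNFAIP2 have no match to the NF-kB letters searched, and their boxes are of other motifs.

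Levels per transcript length show which of these genes the cells use most. TPM, levels scaled by both length and depth, were computed from counts and the length of the longest GENCODE transcript. CXCL1 was the highest, at 114 ± 10.4 TPM with SLNCR and 111 ± 5.43 TPM with the empty vector (SD, n = 3 each), above 89.5% of tested genes in the empty vector libraries. TNFAIP2, first found as a gene induced by tumour necrosis factor, had 55.1 ± 1.02 TPM with SLNCR and 61.3 ± 1.64 TPM with the empty vector. CXCL8 had 80.3 ± 6.69 TPM with SLNCR and 58.8 ± 6.51 TPM with the empty vector. The ranges of TNFAIP2 and CXCL8 overlapped in the empty vector libraries, so their order there is not set beyond the spread. In the SLNCR libraries the lowest CXCL8 value, 75.2 TPM, was above the highest TNFAIP2 value, 56.2 TPM.

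NFKBIA and NFKB1 followed and could not be separated. NFKBIA had 37.9 ± 0.573 TPM with SLNCR and 34.9 ± 2.16 TPM with the empty vector, and NFKB1 had 35.3 ± 1.89 TPM and 34.6 ± 1.83 TPM in the same groups. Next were TNFAIP3, at 23.1 ± 2.13 TPM with SLNCR and 22.0 ± 1.26 TPM with the empty vector, and RELB, at 10.9 ± 1.80 and 12.01 ± 0.986 TPM. PTGS2 was at 9.91 ± 1.30 TPM with SLNCR and 6.72 ± 0.382 TPM with the empty vector. BIRC3 was the lowest of the 9, at 3.66 ± 0.547 TPM with SLNCR and 2.42 ± 0.401 TPM with the empty vector, above 11.1% of tested genes in the empty vector libraries. From NFKB1 down, each gene's empty vector libraries lay wholly above those of the next. With the union of exons as the length, the empty vector order was the same, TNFAIP2 (72.1 TPM) lay wholly above CXCL8 (55.7 TPM), and NFKB1 (28.5 TPM) was not separated from TNFAIP3 (26.1 TPM).

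**Figure D2:**
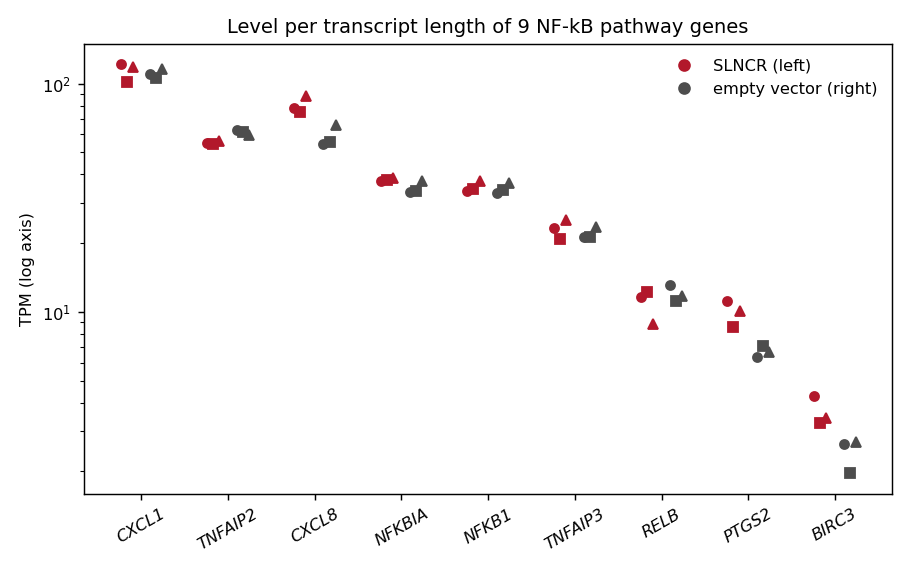
TPM of the 9 measured genes in each library on a log axis, SLNCR libraries left and empty vector libraries right of each gene name, with circle, square and triangle for replicates 1, 2 and 3. Levels run from above 100 TPM for CXCL1 to between 1.96 and 4.28 TPM for BIRC3.

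The comparison of SLNCR with the empty vector asks which genes SLNCR overexpression changes. All values here are CPM, and a log2 fold change is SLNCR over empty vector from the fit across all genes. In that fit 4 of the 9 genes passed an adjusted p of 0.05, beside 16.5% of all tested genes. Of these, 3 were higher, beside 8.84% of all tested genes, and 1 was lower, beside 7.67%. The groups did not overlap for the same 4 genes, beside 38.9% of all tested genes (19.7% higher and 19.1% lower). The list was chosen on this comparison, so nothing is read from these counts. Without SLNCR replicate 1, empty vector replicate 1 or empty vector replicate 2, 0 of the 9 passed, where at most 2 of all tested genes did. The median log2 fold change of the 9 was 0.016, beside -0.0097 for all tested genes.

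The chemokines are secreted ligands of the receptors CXCR1 and CXCR2. CXCL8 (interleukin-8, chromosome 4, 73740506 to 73743716, GRCh38) had 54.5, 53.9 and 60.6 CPM with SLNCR, against 41.2, 40.1 and 47.1 CPM with the empty vector. All 3 SLNCR libraries were above all empty vector libraries, and replicate 3 was the highest of each group. Its log2 fold change was 0.40 (SE 0.0810), or 1.32-fold. CXCL1 lies downstream in the same cluster on chromosome 4 (73869393 to 73871242) and had 54.7, 47.1 and 52.5 CPM with SLNCR, against 53.9, 48.8 and 53.2 CPM with the empty vector. These groups overlapped almost completely, with a log2 fold change of -0.016 (SE 0.0773). Without single libraries its value ran from -0.063 to 0.045, so its sign is not set. CXCL1 belongs to a family of related genes, and 60 of the 1048 stretches of 50 bases in its longest transcript (5.73%) also occur in CXCL2, so a part of its reads may be uncertain. The same search found 0 such stretches shared with CXCL3, whose counts were 7, 5 and 4 reads with SLNCR and 5, 3 and 4 reads with the empty vector, below the filter. For CXCL8 it found 0 shared with CXCL1, CXCL2 or CXCL3.

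PTGS2, cyclooxygenase-2, makes the precursor of prostaglandins (chromosome 1, 186671791 to 186680427). It had 20.6, 16.2 and 18.4 CPM with SLNCR, against 12.8, 13.5 and 12.6 CPM with the empty vector. The empty vector libraries lay close together and below every SLNCR library. The log2 fold change was 0.51 (SE 0.116), or 1.42-fold, on raw counts of 165 to 217 with SLNCR and 115 to 128 with the empty vector. BIRC3 (cIAP2, chromosome 11, 102317450 to 102339403) is a ubiquitin ligase of the tumour necrosis factor receptor complex and a known NF-kB target. Its values were 9.13, 7.11 and 7.23 CPM with SLNCR, against 6.08, 4.30 and 5.80 CPM with the empty vector. The groups did not overlap, but these are only 65 to 96 reads with SLNCR and 39 to 61 reads with the empty vector. The log2 fold change was 0.53 (SE 0.176), with the widest error of the 9. It ran from 0.40 without empty vector replicate 2 to 0.63 without empty vector replicate 1.

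TNFAIP2 (chromosome 14, 103123442 to 103137439) was the gene that was lower. It had 105.7, 106.8 and 106.6 CPM with SLNCR, against 130.9, 121.5 and 116.2 CPM with the empty vector. The SLNCR libraries were nearly identical, and all were below the empty vector libraries, which spread more widely. Its log2 fold change was -0.21 (SE 0.0606), or 0.865-fold.

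The feedback inhibitors overlapped between the groups. TNFAIP3 (A20, chromosome 6, 137867188 to 137883312) is a ubiquitin-editing enzyme that shuts off signalling to the IkB kinases. It had 45.2, 41.7 and 48.3 CPM with SLNCR, against 44.9, 42.4 and 46.3 CPM with the empty vector, a log2 fold change of 0.016 (SE 0.0783). NFKBIA (IkB alpha, chromosome 14, 35401511 to 35404749), the inhibitor that NF-kB itself induces, had 23.9, 24.9 and 24.3 CPM with SLNCR, against 23.3, 22.1 and 24.3 CPM with the empty vector. Its log2 fold change was 0.065 (SE 0.0898). Both genes spread as much within a group as between the groups.

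The same held for the subunits. NFKB1 (p105 and p50, chromosome 4, 102501329 to 102617302) had 56.8, 59.5 and 62.0 CPM with SLNCR, against 60.1, 58.7 and 62.4 CPM with the empty vector, a log2 fold change of -0.025 (SE 0.0683). RELB (chromosome 19, 45001430 to 45038198), a subunit of the non-canonical branch, had 10.9, 11.8 and 8.23 CPM with SLNCR, against 13.4, 10.8 and 11.3 CPM with the empty vector. SLNCR replicate 3 was the lowest library. The log2 fold change of RELB was -0.19 (SE 0.146), and without SLNCR replicate 3 it was -0.058. The gene bodies of the 9 genes overlap no other tested gene.

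**Figure D3:**
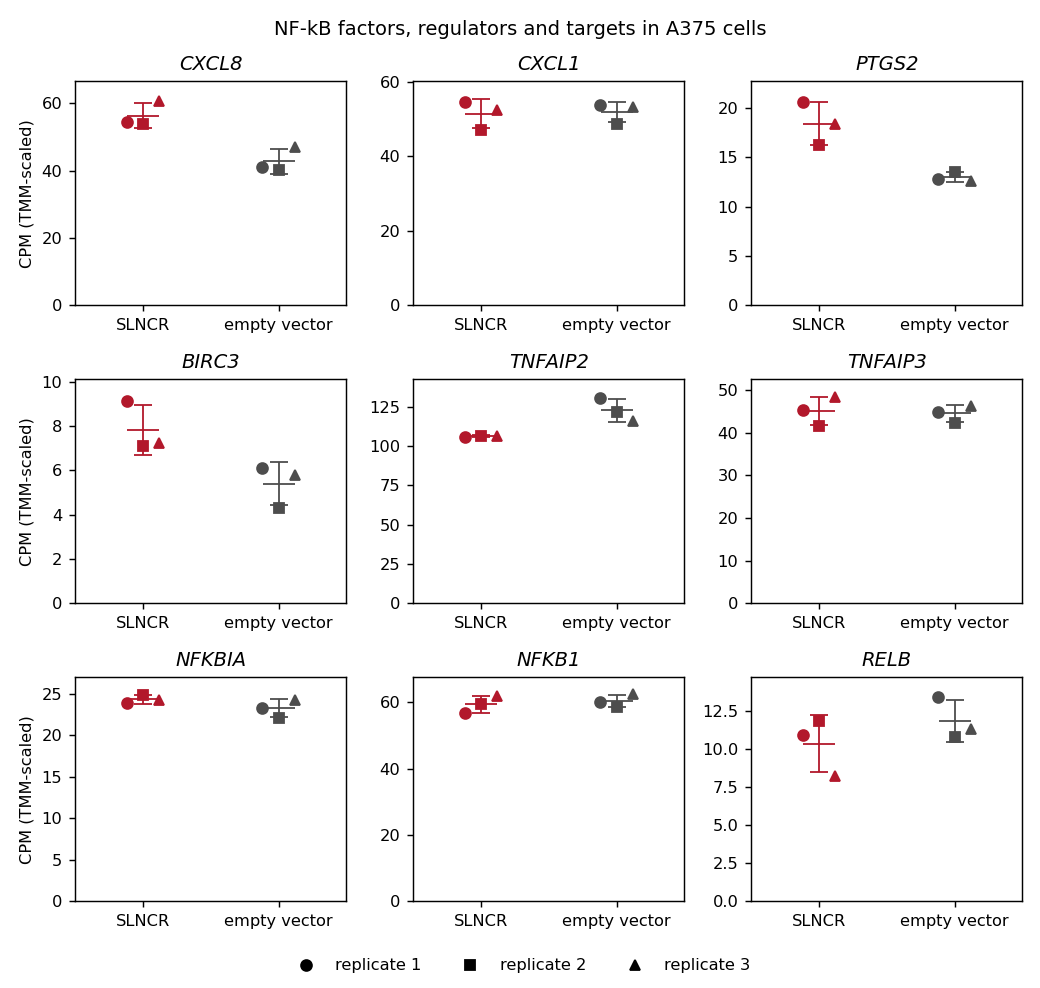
CPM (TMM-scaled) of the 9 genes by library, SLNCR left and empty vector right, with bars for the mean and SD of 3 replicates. CXCL8, PTGS2 and BIRC3 are higher in every SLNCR library than in any empty vector library, TNFAIP2 is lower in every SLNCR library, and the other 5 genes overlap.

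The base composition of the transcripts moved with these differences. GC content is that of the longest transcript. The 3 higher genes were the 3 lowest in GC content, with 33.4% for CXCL8, 34.8% for BIRC3 and 36.9% for PTGS2. TNFAIP2 (62.0%) and RELB (65.4%) were the richest and had the lowest fold changes. Between them came CXCL1 (45.6%), TNFAIP3 (49.5%), NFKB1 (50.1%) and NFKBIA (53.1%). Over all tested genes, the 10% with the lowest GC content, which hold CXCL8, PTGS2 and BIRC3, had a median log2 fold change of 0.24. The 10% with the highest, which hold TNFAIP2 and RELB, had a median of -0.26. Relative to the median of its own 10%, CXCL8 stood at 0.16, PTGS2 at 0.27, BIRC3 at 0.30, NFKBIA at 0.15, RELB at 0.073, TNFAIP2 at 0.052, TNFAIP3 at 0.051, NFKB1 at 0.010 and CXCL1 at -0.046 on the log2 scale.

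The libraries themselves differed in this respect. Taking the mean log2 deviation of the lowest 10% minus that of the highest 10%, the SLNCR libraries stood at 0.20, 0.079 and 0.45, against -0.35, -0.26 and -0.12 for the empty vector. SLNCR replicate 3, with the largest difference of its group, had the highest CXCL8 value, and empty vector replicate 1, with the most negative, the highest TNFAIP2 value. PTGS2 and BIRC3 did not follow this order within the SLNCR group, where replicate 1 was highest for both. Nor did TNFAIP2 there, with its lowest value in replicate 1 (105.7 CPM, against 106.6 CPM in replicate 3). In the empty vector group TNFAIP2 followed the order. CXCL8 and BIRC3 were lowest there in replicate 2, and PTGS2 in replicate 3.

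A correction was made for GC content. In each library it removed a smooth trend, against GC content, of each gene's log2 CPM deviation from its mean over the libraries. The log2 fold change of CXCL8 was then 0.13 (SE 0.0662), that of PTGS2 0.29 (SE 0.113) and that of BIRC3 0.28 (SE 0.176). TNFAIP2 stood at 0.024 (SE 0.0523), within its error of 0, and at -0.027 where SLNCR replicate 3 was left out too, so its sign is not set. CXCL1 stood at -0.061 (SE 0.0699), TNFAIP3 at 0.044 (SE 0.0727), NFKB1 at 0.015 (SE 0.0622) and RELB at 0.089 (SE 0.128). Each of these was within its error of 0. RELB had been at -0.19 without the correction, so its sign is not set. NFKBIA stood at 0.16 (SE 0.0870). After the correction 0 of the 9 genes passed in edgeR, and 2 of all 12797 genes did (0.0156%). At an unadjusted p below 0.05 there was 1 of the 9, beside 15.1% of all tested genes. LINC00673, the transfected RNA, did not pass in this fit either, at 3.38 (SE 0.201, adjusted p = 0.0538 in edgeR). A lack of calls in this fit therefore does not show a lack of change. All SLNCR libraries stood above all empty vector libraries in the GC measure above. A trend of the libraries and an SLNCR effect that follows GC content therefore cannot be told apart, and the correction removes both. Over 8 fits with the correction (alone, with the replicate block, and with each library left out), PTGS2 lay between 0.19 and 0.34, BIRC3 between 0.15 and 0.41 and CXCL8 between 0.090 and 0.16.

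**Figure D4:**
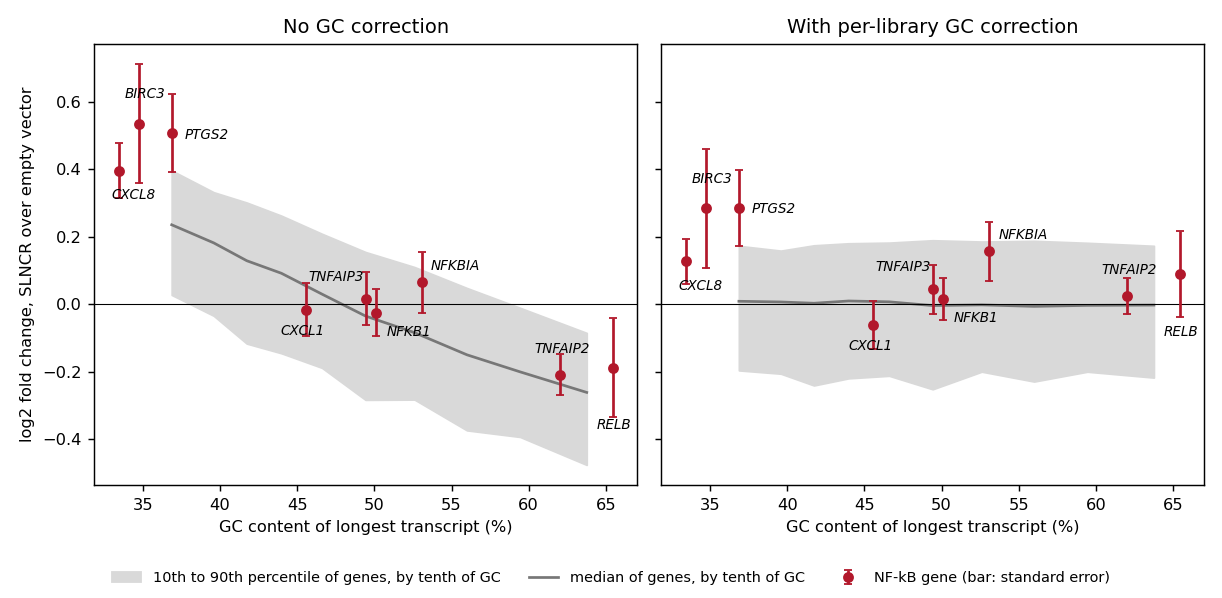
Log2 fold change (SLNCR over empty vector) of the 9 genes against the GC content of their longest transcript, without and with the GC correction. Points carry standard errors, the line is the median and the band the 10th to 90th percentile of all tested genes in 10 bins of GC content. In the left panel CXCL8, PTGS2 and BIRC3 lie at the low-GC end above the median of 0.24, and in the right panel TNFAIP2 lies at 0.024.

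Genes that followed these patterns most closely over the 6 libraries were sought among the 10624 tested genes whose counts averaged 50 or more. The measure was Pearson's r of log2 CPM, a description over libraries that fall into 2 groups. High values can arise from picking the closest of so many genes over 6 libraries. Closest to CXCL8 were MTFR1 (r = 0.999), HDGFL3 (r = 0.999) and USO1 (r = 0.999), with GC contents of 38.8% to 41.1%. PTGS2 was matched best by PRKAG2 (r = 0.995), MAX (r = 0.994) and KLHL8 (r = 0.993), with GC contents of 46.7%, 51.3% and 38.1%. For BIRC3 they were ANKRD28 (r = 0.991), HSPBAP1 (r = 0.980) and SEC62 (r = 0.978), with GC contents of 41.6%, 41.1% and 36.7%. For TNFAIP2 they were ERCC1 (r = 0.997), IER5L (r = 0.996) and DOC2A (r = 0.995), with GC contents of 56.1% to 65.0%. No other of the 9 genes was among these.

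The rest of the pathway was taken from lists drawn up from general knowledge of it, with earlier results of these data known. With the 10 genes left out, the 7 lists hold 184 genes. Of these, 164 had a row and 145 were tested, of which 21 rose, 10 fell and 114 did not pass (edgeR, adjusted over all 12797 genes). This is 21.4% called, beside 16.5% of all tested genes, and the median log2 fold change was -0.029, beside -0.0097. The 21 genes that rose had GC contents of 36.3% to 52.1% and the 10 that fell 55.1% to 65.5%. After the GC correction none of the 145 was called in edgeR (0 genes), and LINC00673 was not called in that fit either. Before adjustment 21 (14.5%) had p below 0.05, beside 15.1% of all tested genes. Without SLNCR replicate 1, empty vector replicate 1 or empty vector replicate 2 the count was 0 as well, with 51, 38 and 45 genes (35.2%, 26.2% and 31.0%) at an unadjusted p below 0.05, beside 28.4%, 22.9% and 26.7% of all tested genes in the same fits.

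Of the other Rel and IkB family genes, 0 of 6 passed in edgeR, DESeq2 or limma-voom, and 1 had an unadjusted p below 0.05 in each. Of all tested genes, 16.5% passed in edgeR, 1681 of 12797 in DESeq2 and 2139 of 12797 in limma-voom. At an unadjusted p below 0.05 there were 34.8% of them in edgeR, 26.6% in DESeq2 and 35% in limma-voom. RELA, the main activating subunit, had 125, 127 and 128 CPM with SLNCR, against 139, 140 and 131 CPM with the empty vector, and a log2 fold change of -0.11 (adjusted p = 0.182 in edgeR, SE 0.0561). NFKB2, the precursor of p52, stood at -0.10 (adjusted p = 0.302 in edgeR, SE 0.0706). The median of the list was -0.022 on the log2 scale. With the GC correction the values were above 0, at 0.054 (SE 0.0486) for RELA, 0.13 (SE 0.0687) for NFKB2 and 0.043 for the median. Neither gene passed there (adjusted p = 0.628 and 0.378 in edgeR), so their signs are not set.

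Among 16 tested kinases and their partners 4 rose and 1 fell (31.2% called, beside 16.5% of all tested genes). CHUK, which encodes the kinase IKK alpha, rose by 0.24 (adjusted p = 0.0185 in edgeR, SE 0.0607), to 104 ± 3.23 CPM with SLNCR against 87.6 ± 2.88 CPM with the empty vector (SD, n = 3 each). RIPK2, the kinase downstream of NOD receptors, rose by 0.31 (adjusted p = 0.0178 in edgeR), and TAB3, a partner of the kinase TAK1, by 0.26 (adjusted p = 0.0252 in edgeR). IRAK1, a kinase of interleukin-1 and Toll-like receptor signalling, fell by 0.28 on the log2 scale (adjusted p = 0.0159 in edgeR), to 489 ± 44.3 CPM against 592 ± 40.3 CPM with the empty vector (SD, n = 3 each). After the GC correction RIPK2 stood at 0.20, TAB3 at 0.076, CHUK at 0.0084 (SE 0.0556) and IRAK1 at -0.030 (SE 0.0364). The values of CHUK and IRAK1 were then within their errors of 0, so their signs in that fit are not set.

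Of 27 receptors and adaptors 5 rose and 4 fell (33.3% called, beside 16.5% of all tested genes). BIRC2 (cIAP1), the paralog of BIRC3 next to it on the chromosome, rose by 0.29 (adjusted p = 0.0139 in edgeR, SE 0.0627), to 118 ± 6.83 CPM with SLNCR against 96.0 ± 3.24 CPM with the empty vector (SD, n = 3 each). The receptor genes LTBR and TNFRSF1A fell by 0.23 and 0.25 on the log2 scale (adjusted p = 0.0174 and 0.0194 in edgeR), and the adaptor TRAF2, which recruits BIRC2 and BIRC3, fell by 0.36 (adjusted p = 0.0207 in edgeR). Corrected for GC, BIRC2 stood at 0.091, LTBR at -0.11, TNFRSF1A at -0.085 and TRAF2 at -0.14.

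Of 20 ubiquitin editors and ligases 5 rose and 2 fell (35% called, beside 16.5% of all tested genes). TNIP1, which encodes a partner of A20, fell by 0.41 on the log2 scale (adjusted p = 0.0137 in edgeR, SE 0.0867), to 48.7, 50.4 and 39.1 CPM with SLNCR against 63.7, 58.7 and 61.6 CPM with the empty vector. Other partners of A20 moved the opposite way: TAX1BP1 rose by 0.20 (adjusted p = 0.0237 in edgeR, SE 0.0555) and RNF11 by 0.32 (adjusted p = 0.0168 in edgeR, SE 0.0768). UBE2D3, a ubiquitin-conjugating enzyme, rose by 0.29 (adjusted p = 0.0137 in edgeR). With the GC correction TAX1BP1, at 48.0% GC, stood at 0.21, RNF11 at 0.19, UBE2D3 at 0.086 and TNIP1 at -0.22, and none of the 4 passed (edgeR adjusted p = 0.0611, 0.127, 0.325 and 0.143).

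Of 30 cytokine and chemokine genes listed besides CXCL8, CXCL1 and CXCL2, 20 had a row and 11 were tested. Of these 0 passed in edgeR, beside 16.5% of all tested genes, and 1 had an unadjusted p below 0.05, beside 34.8%. In DESeq2 and in limma-voom 1 passed and was lower, beside 1681 and 2139 of all 12797 tested genes. That gene was IL11, a cytokine of the interleukin-6 family, with 61.9, 65.8 and 42.6 CPM with SLNCR, against 76.4, 73.6 and 71.5 CPM with the empty vector. In edgeR it stood at -0.37 on the log2 scale (SE 0.129, adjusted p = 0.0690, with 0.000122 to 0.194 over the alternatives without GC correction). Without SLNCR replicate 3 it was -0.21. TNFSF9, a costimulatory ligand for T cells, stood at 0.076 (adjusted p = 0.507 in edgeR). After the GC correction IL11 stood at -0.24 and TNFSF9 at 0.24 (adjusted p = 0.358 and 0.145 in edgeR), and with the replicate block added TNFSF9 passed (0.24, adjusted p = 0.0441). Genes under the filter included CCL20, with 2, 6 and 0 reads with SLNCR and 2, 4 and 4 reads with the empty vector, and IL32, with 4, 4 and 2 reads against 5, 2 and 5 reads. A difference in these was not detectable at this depth.

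Among 56 other NF-kB targets 5 rose and 2 fell (12.5% called, beside 16.5% of all tested genes). XIAP, which encodes a caspase inhibitor of the family of BIRC3, rose by 0.30 (adjusted p = 0.0140 in edgeR), the adhesion receptor CD44 by 0.20 (adjusted p = 0.0159 in edgeR) and NAMPT, an enzyme of NAD synthesis, by 0.22 (adjusted p = 0.0272 in edgeR). SPHK1, a sphingosine kinase, fell by 0.43 on the log2 scale (adjusted p = 0.0263 in edgeR). Corrected for GC, they stood at 0.11, 0.14, -0.012 and -0.16. The value of NAMPT was within its error of 0 (SE 0.0422), so its sign is not set.

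Around PTGS2, the prostaglandin list had 10 tested genes, of which 2 rose and 1 fell (30% called, beside 16.5% of all tested genes). PTGES, the inducible synthase that acts after PTGS2 to make prostaglandin E2, fell by 0.37 on the log2 scale (adjusted p = 0.0287 in edgeR, SE 0.107), to 22.1, 24.2 and 18.8 CPM with SLNCR against 25.2, 30.5 and 28.9 CPM with the empty vector. PTGES3, the cytosolic synthase and a co-chaperone, rose by 0.25 (adjusted p = 0.0137 in edgeR, SE 0.0468), and ABCC4, an exporter of prostaglandins, by 0.20 (adjusted p = 0.0482 in edgeR). Over 14 alternatives without GC correction PTGES passed in 9, PTGES3 in 11 and ABCC4 in 7, with the same sign in all 14. After the GC correction PTGES stood at -0.22, PTGES3 at 0.15 and ABCC4 at 0.11.

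**Figure D5:**
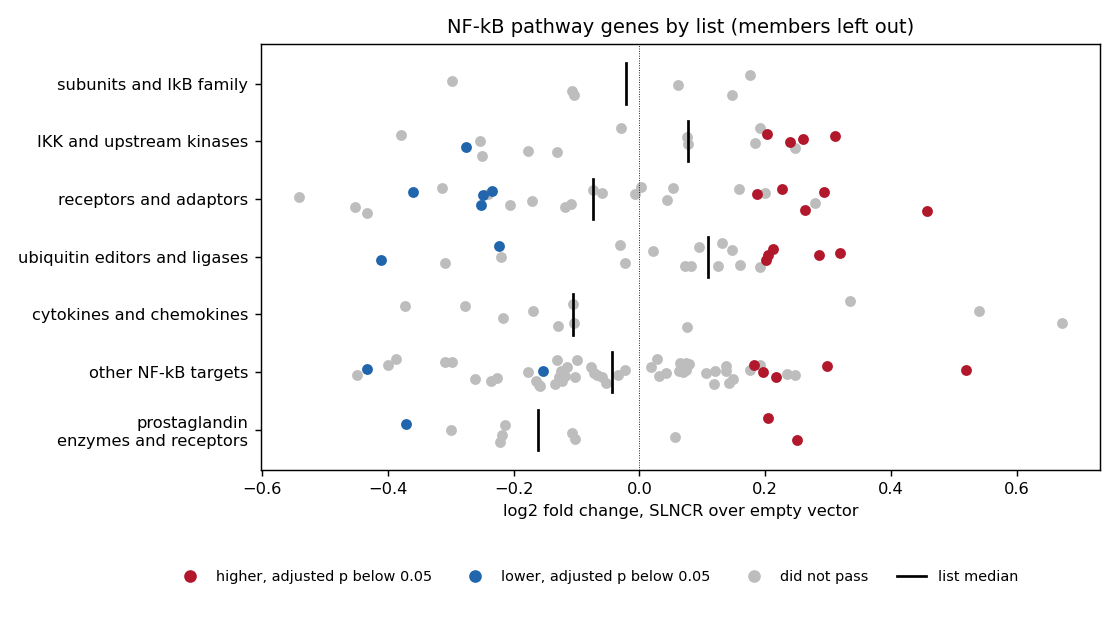
Log2 fold change (x axis, SLNCR over empty vector) of the tested genes of 7 NF-kB pathway lists, the 10 genes left out, with 1 point per gene and a black line at the list median. Every list except the Rel and IkB family and the cytokines holds genes that rose and genes that fell, and list medians lie between -0.16 and 0.11.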

How the data were processed

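The authors deposited raw read counts per gene, 1 column per library. Per the submitters' processing notes, cutadapt, STAR, DESeq2 1.24.07 and build GRCh38 were used. What each did, and which counter, annotation and strandedness applied, is not given in the sources used here. Of 20238 rows, 1857 named no gene (2.15% to 2.59% of counts) and were left out, as were 63 rows with the same counts as a neighbouring row (mean of at least 10). GENCODE 29 (GRCh38) gave symbols, positions, lengths and GC content.

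Groups were compared with edgeR 4.0.16 (R 4.3.3), by the quasi-likelihood test with robust dispersion, TMM and filterByExpr, two-sided, at a Benjamini-Hochberg adjusted p of 0.05 across 12797 genes. Log2 CPM used a prior count of 2. The GC correction was a loess curve per library (span 0.5, degree 2) of log2 CPM deviations from the gene mean. The curve was fitted on genes with a mean log2 CPM above 1. Fits were tested on simulated counts. Chi-square over degrees of freedom was 1.78 or more for each pair of libraries within a group, above sampling noise. The alternatives were other size factors, filters and thresholds, DESeq2 1.42.0, limma-voom (limma 3.58.1), a replicate block, all rows kept, and each library left out. The fits that combine the GC correction with leaving out a library were chosen after seeing the data.

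Members and lists were chosen with earlier results of these data known. Named genes were all members, LINC00673, in each list the 4 passing genes with the smallest adjusted p (or, where none passed, the 2 with the highest counts), the 3 closest genes by correlation, and cell type markers. CXCL3, CCL20, IL32, BMP2 and PTGER3 were named after their values were seen. No protein sequences were used here.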

Additional observations from a re-analysis of the deposited data

How the results depend on the processing

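Without a GC correction, the sign of CXCL8, PTGS2, BIRC3 and TNFAIP2 held in each of 14 alternatives, of which 8 to 11 passed. The call of each was lost without SLNCR replicate 1, empty vector replicate 1 or empty vector replicate 2. These genes were listed because of their change in the same libraries, so this is a description only. BIRC3 did not pass with limma-voom or without empty vector replicate 3, and has no adjusted p in DESeq2. With the GC correction TNFAIP2 changed to 0.024 (SE 0.0523), also 0.024 with the replicate block. With SLNCR replicate 1, 2 or 3 left out as well it was 0.040, 0.058 or -0.027. With empty vector replicate 1, 2 or 3 left out as well it was 0.043, 0.016 or 0.016. NAMPT changed to -0.012 (SE 0.0422) and, with the block, to -0.011. Both genes then lay within their error of 0. The count of changed genes, 2112, became 2 with the GC correction, 408 with that correction and the replicate block, 3523 with the replicate block alone, and 2 and 3642 at adjusted p of 0.01 and 0.10. The count of changed pathway genes, 31, became 0, 6, 50, 0 and 50 in the same order. Leaving out 1 library gave 1 to 3366 genes and 0 to 46 pathway genes. Upper quartile scaling gave 16 pathway genes higher and 10 lower. The causes were not tested. Same-numbered libraries deviated together with r = 0.0414, 0.0217 and 0.195, so the numbers were not taken as pairs. BIRC3, with 39 to 96 reads per library, had the lowest counts of the 9 measured genes, and listed genes such as CXCL3, CCL20 and IL32 fell below the filter.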

Other observations

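Among the targets outside the named genes, BMP2, a bone morphogenetic protein, stood out after its values were seen. It had 7.79, 6.73 and 10.0 CPM with SLNCR, against 6.08, 5.29 and 5.58 CPM with the empty vector. Its log2 fold change was 0.52 (adjusted p = 0.0495 in edgeR). Its transcript has 52.1% GC, the highest among the 21 pathway genes that rose, and with the GC correction it stood at 0.59 (adjusted p = 0.117 in edgeR, SE 0.173).

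PTGER3, a prostaglandin E2 receptor gene, was counted at 1, 20 and 0 reads in SLNCR replicates 1, 2 and 3 and at 0 reads in each empty vector library, so all but 1 of its reads came from a single library.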
